A study of Mus musculus with 6 samples.

Results

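Bone morphogenetic protein (BMP) antagonists and modulators are secreted or membrane-bound proteins that bind BMPs or related ligands outside the cell. Their transcripts were compared between Bmi1-overexpressing and empty vector control neurospheres. The set holds 9 genes, Sostdc1, Nog, Grem1, Chrd, Chrdl1, Crim1, Bmper, Twsg1 and Fst, out of 19938 genes with a probe set of their own in the series. A probe set counted for a gene where the platform annotation named that gene alone, and among several the one to use was chosen by its mean over the 6 arrays. Each of the 9 genes had 1 such probe set, so that this choice had no effect, and no difference between the groups entered the rule for probe sets, although the genes were listed with earlier results of these arrays known.

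Neurospheres are floating spheres of neural stem/progenitor cells, here from outbred CD1 mice aged 4 to 6 weeks, whose lateral ventricle wall was dissociated and cultured with EGF and FGF. All cells had been transduced with a retroviral vector that encodes eGFP, sorted on eGFP and kept at clonal density with 2000 cells per well. In the Bmi1 group the pCMMP vector carried Bmi1, a Polycomb repressor gene, and in the control group it had no insert. According to the series' design each group had 3 independent cultures, and RNA of each was hybridized to 1 Affymetrix Mouse Gene ST 1.0 array. Whether the cultures came from separate mice is not stated in the sources used here, and the labels name the unflagged vector whereas the text of the study names the FLAG-tagged one. Groups follow the titles, with which the transduction and genotype entries agree. The source name of each of the 6 samples states the other group instead, and if it were right every difference given here would have the opposite sign.

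BMPs are ligands of the TGF-beta superfamily. They bring type I and type II receptors together, which phosphorylate Smad proteins that act on target genes such as the Id genes. Antagonists such as noggin and chordin bind the ligand and keep it from its receptors, and other modulators tether, present or release it. In the wall of the lateral ventricle, BMP signals favor glial fates and quiescence, and noggin made by ependymal cells favors the formation of neurons.

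Values are log2 expression values of the robust multi-array average (RMA), and differences are Bmi1 minus empty vector on that scale. A gene is said to have risen or fallen where limma gave p under 0.05 after Benjamini-Hochberg adjustment, which covered the 35557 probe sets of the table. RMA compresses the differences of dim probe sets, and probe sets of different genes are not comparable in level. Array medians lay between 4.37 and 4.45, and arrays of the same group correlated at 0.991 to 0.993, those of different groups at 0.985 to 0.987. The targeted gene Bmi1 read 7.70, 8.40 and 8.31 in the control arrays and 9.18, 8.36 and 8.42 in the Bmi1 arrays. The ranges overlapped and the difference of 0.52 did not pass (95% confidence interval -0.16 to 1.19, limma adjusted p = 0.38), so the probe set of Bmi1 does not check the labels.

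Of the 9 BMP antagonists and modulators, 3 fell and 1 rose, and the test was not passed by the other 5. Crim1 had the largest difference in size, followed by Sostdc1, Chrdl1 and Bmper. Among all 19938 genes, 7.35% were called, 4.37% as lower and 2.98% as higher. Because of how the genes were listed, nothing is read from their count against that background, nor from the sizes and overlaps given next. Their differences ran from -2.61 to 1.06 with a median of 0.05, beside a median of 0.01 over all genes. The median size of a difference, regardless of its direction, was 0.37 for the 9 genes and 0.11 for all genes. The groups did not overlap for 5 of the 9, the 4 called genes and Nog, and for 31.3% of all genes.

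**Figure D1:**
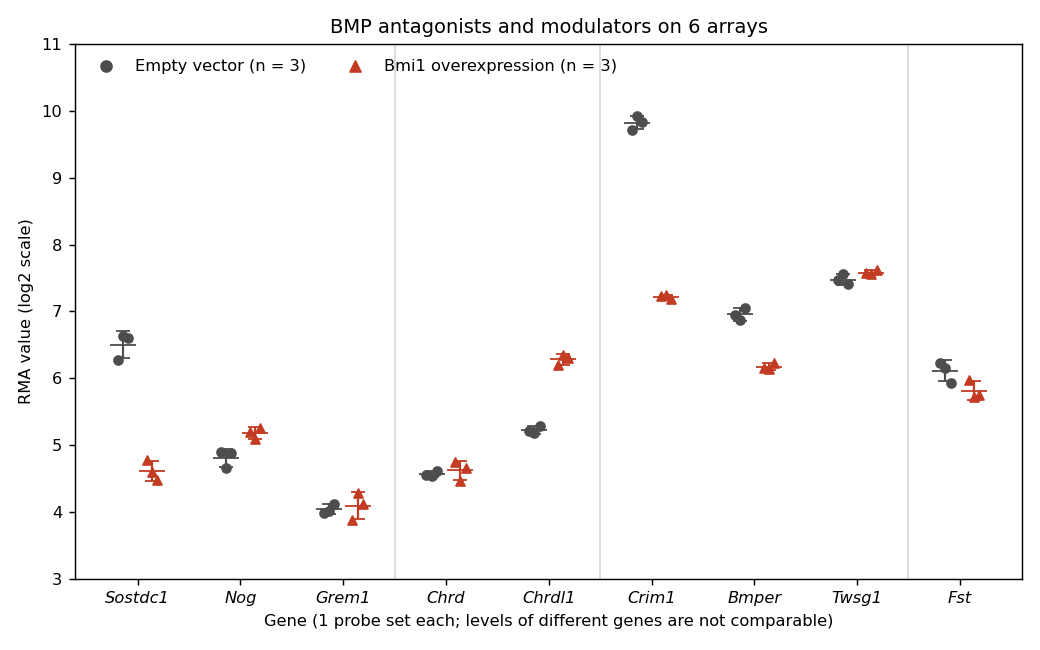
The y axis gives RMA values (log2) and the x axis the 9 genes in order of protein type. Each symbol is 1 array (circle, empty vector; triangle, Bmi1), and horizontal lines with bars give group means ± SD (n = 3). Crim1, Sostdc1 and Bmper lie lower on every Bmi1 array and Chrdl1 and Nog lie higher, whereas Grem1, Chrd, Twsg1 and Fst overlap between the groups.

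Promoter sequences are shown with their CpGs because Polycomb complexes often occupy CpG-rich promoters. RefSeq promoters (build GRCm38.p6) were matched for 5 of the 9 genes: Crim1, Bmper, Chrd, Grem1 and Twsg1, and none for Sostdc1, Chrdl1, Nog and Fst. The 250 bases before the transcription start are shown for Crim1 and Bmper, which fell, and for Chrd, which did not pass, with each CpG in capitals. They lie at chr17:78199998-78200247 for Crim1, chr9:23222826-23223075 for Bmper and chr16:20732877-20733126 for Chrd, all on the plus strand.
Crim1: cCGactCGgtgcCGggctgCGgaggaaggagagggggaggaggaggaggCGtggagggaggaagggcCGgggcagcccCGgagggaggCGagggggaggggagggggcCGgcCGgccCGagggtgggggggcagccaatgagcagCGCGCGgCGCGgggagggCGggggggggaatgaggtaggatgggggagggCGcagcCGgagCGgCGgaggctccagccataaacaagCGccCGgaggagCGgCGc
Bmper: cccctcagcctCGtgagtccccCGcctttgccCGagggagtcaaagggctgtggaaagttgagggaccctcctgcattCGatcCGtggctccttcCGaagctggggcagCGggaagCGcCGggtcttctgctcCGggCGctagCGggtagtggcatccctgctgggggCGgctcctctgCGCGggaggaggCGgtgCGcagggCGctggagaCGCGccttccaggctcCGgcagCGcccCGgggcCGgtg
Chrd: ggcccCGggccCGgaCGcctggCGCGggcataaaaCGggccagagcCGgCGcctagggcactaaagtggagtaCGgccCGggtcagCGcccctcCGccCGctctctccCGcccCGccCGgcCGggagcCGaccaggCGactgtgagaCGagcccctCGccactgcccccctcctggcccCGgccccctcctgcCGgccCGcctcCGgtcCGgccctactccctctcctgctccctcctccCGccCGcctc
These stretches hold 25 CpG for Crim1, 24 for Bmper and 28 for Chrd, beside a median of 6 over 32851 RefSeq promoters. Fewer CpG were held by 89.3%, 88.0% and 92.4% of all promoters, respectively. The counts of Grem1 and Twsg1, which did not pass, were 24 and 16, with 88.0% and 74.6% of all promoters holding fewer. The GC content was 77.6% for Crim1, 71.6% for Bmper, 78.0% for Chrd, 72.0% for Grem1 and 64.4% for Twsg1, beside a median of 52.4%. The palindrome GGCGCC, a GC-rich sequence to which BMP-activated Smads can bind, was found once each in the promoters of Chrd and Grem1 and not in those of Crim1, Bmper and Twsg1. Of all promoters, 9.6% hold it in this window. Binding and DNA methylation at these promoters were not measured on the arrays.

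Sostdc1, Nog and Grem1 encode secreted cystine-knot antagonists. Sostdc1, also called ectodin or Wise, binds BMPs and also acts on Wnt signaling. It read 6.27, 6.63 and 6.60 in the control arrays and 4.78, 4.59 and 4.48 in the Bmi1 arrays (probe set 10395389). All 3 Bmi1 arrays lay below all 3 control arrays, with a gap of 1.49 between the groups. The mean fell from 6.50 ± 0.20 to 4.61 ± 0.15 (SD, n = 3 each), that is 3.69-fold. The log2 difference was -1.89 (SE 0.13, 95% confidence interval -2.20 to -1.57, limma adjusted p = 0.0011). Of all probe sets, 0.34% had a lower difference. The call was lost when the methods' test was run with unequal variances (adjusted p = 0.051).

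Nog, which encodes noggin, did not pass. It read 4.89, 4.66 and 4.88 in the control arrays and 5.20, 5.09 and 5.25 in the Bmi1 arrays (probe set 10389752). The groups did not overlap, with a gap of 0.20, but the spread within them was larger relative to the difference than for Sostdc1. The means were 4.81 ± 0.13 and 5.18 ± 0.08 (SD, n = 3 each) and the log2 difference was 0.37 (95% confidence interval 0.14 to 0.59, limma adjusted p = 0.083). Grem1, which encodes gremlin, an antagonist of the DAN family, read 3.98, 4.01 and 4.12 in the control arrays and 3.88, 4.28 and 4.12 in the Bmi1 arrays (probe set 10485948). The Bmi1 arrays spanned the whole range of the control arrays. Its log2 difference was 0.05 (95% confidence interval -0.23 to 0.33, limma adjusted p = 0.86). Among these antagonists, then, Sostdc1 fell, whereas the intervals of Nog and Grem1 contain no difference below -0.23.

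Chrd and Chrdl1 encode chordin and chordin-like proteins, which hold BMPs through cysteine-rich repeats. Chrdl1, known as a secreted factor that favors neurogenesis, read 5.21, 5.18 and 5.29 in the control arrays and 6.19, 6.35 and 6.30 in the Bmi1 arrays (probe set 10607124). Every Bmi1 array was higher than every control array, with a gap of 0.90. The mean rose from 5.23 ± 0.06 to 6.28 ± 0.08 (SD, n = 3 each), that is 2.08-fold. The log2 difference was 1.06 (SE 0.07, 95% confidence interval 0.88 to 1.24, limma adjusted p = 0.0012). Of all probe sets, 99.5% had a lower difference. Chrd read 4.55, 4.53 and 4.61 in the control arrays and 4.75, 4.47 and 4.66 in the Bmi1 arrays (probe set 10434528). Its ranges overlapped, with Bmi1 replicate 2 below all control arrays and the others above them. The log2 difference of Chrd was 0.06 (95% confidence interval -0.16 to 0.28, limma adjusted p = 0.78). The intervals of Chrd and Chrdl1 do not meet, although the difference between the 2 genes was not tested.

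Crim1, Bmper and Twsg1 encode proteins with cysteine-rich BMP-binding parts that can hold the ligand at or near the cell. Crim1 spans the cell membrane and tethers BMPs there. It read 9.72, 9.92 and 9.84 in the control arrays and 7.23, 7.24 and 7.18 in the Bmi1 arrays (probe set 10446986). The gap between the groups was 2.48, many times the spread within either. The mean fell from 9.82 ± 0.10 to 7.22 ± 0.03 (SD, n = 3 each), that is 6.10-fold. The log2 difference was -2.61 (SE 0.08, 95% confidence interval -2.79 to -2.42, limma adjusted p = 2.4e-04). Of all 35557 probe sets, 0.028% had a lower difference.
Bmper, a secreted protein that restrains or promotes BMP signaling depending on its amount, read 6.95, 6.87 and 7.06 in the control arrays and 6.16, 6.14 and 6.23 in the Bmi1 arrays (probe set 10583870). All Bmi1 arrays lay below all control arrays, by at least 0.64. The mean fell from 6.96 ± 0.10 to 6.17 ± 0.05 (SD, n = 3 each), that is 1.72-fold. The log2 difference was -0.78 (SE 0.08, 95% confidence interval -0.97 to -0.60, limma adjusted p = 0.0036). The call of Bmper was lost when the methods' test was run with unequal variances (adjusted p = 0.077), and its difference is under the size of 1 that the methods of the study require.
Twsg1, which encodes the chordin partner twisted gastrulation, read 7.47, 7.56 and 7.40 in the control arrays and 7.57, 7.56 and 7.62 in the Bmi1 arrays (probe set 10452508). The lowest Bmi1 array lay just below the highest control array. Twsg1 had a log2 difference of 0.10 (95% confidence interval -0.07 to 0.27, limma adjusted p = 0.49).

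Fst encodes follistatin, which binds activins most tightly and some BMPs as well. It read 6.24, 6.16 and 5.93 in the control arrays and 5.97, 5.72 and 5.74 in the Bmi1 arrays (probe set 10412260). Bmi1 replicate 1 lay above control replicate 3, so the groups overlapped by 1 array each. For Fst the log2 difference was -0.30 (95% confidence interval -0.57 to -0.02) and did not pass (unadjusted p = 0.037, limma adjusted p = 0.21).

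The 4 calls held with each of the 6 arrays left out in turn, with the largest adjusted p at 0.0038 for Crim1, 0.0093 for Sostdc1, 0.011 for Chrdl1 and 0.022 for Bmper from limma. The other 5 genes passed in none of these fits. For a single gene, an exact permutation test of 3 arrays against 3 cannot go below p = 0.1 (two-sided), which is the value of each gene whose groups do not overlap. The probe sets of Chrd, Nog and Grem1 had a mean under 5 over the 6 arrays, so that 6 of the 9 genes remained with a filter at that level and the same 4 of them were called. No detection calls were given, and a difference of these dim genes may be understated.

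A further list held extracellular modulators that are not among the 9. Of 20 listed genes 18 had a probe set of their own, and of these 1 rose, none fell and 17 did not pass in limma, with 5 at an unadjusted p under 0.05. The share called was 5.56%, beside 7.35% of all genes. Fstl1, a follistatin-like secreted glycoprotein, read 6.15, 6.09 and 6.17 in the control arrays and 6.55, 6.40 and 6.52 in the Bmi1 arrays. Its ranges did not overlap, and the log2 difference was 0.35 (SE 0.07, limma adjusted p = 0.042). The call of Fstl1 was lost in each of the 6 fits with 1 array left out (limma adjusted p = 0.064 to 0.14) and after median centring. The differences of the 18 genes ran from -0.29 for Rgmb, a BMP co-receptor, to 0.55 for Vwc2, a neural BMP antagonist also called brorin, with a median of 0.13. Neither Rgmb (limma adjusted p = 0.13) nor Vwc2 (limma adjusted p = 0.062) passed, and both were named for being the extremes of the list.

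**Figure D2:**
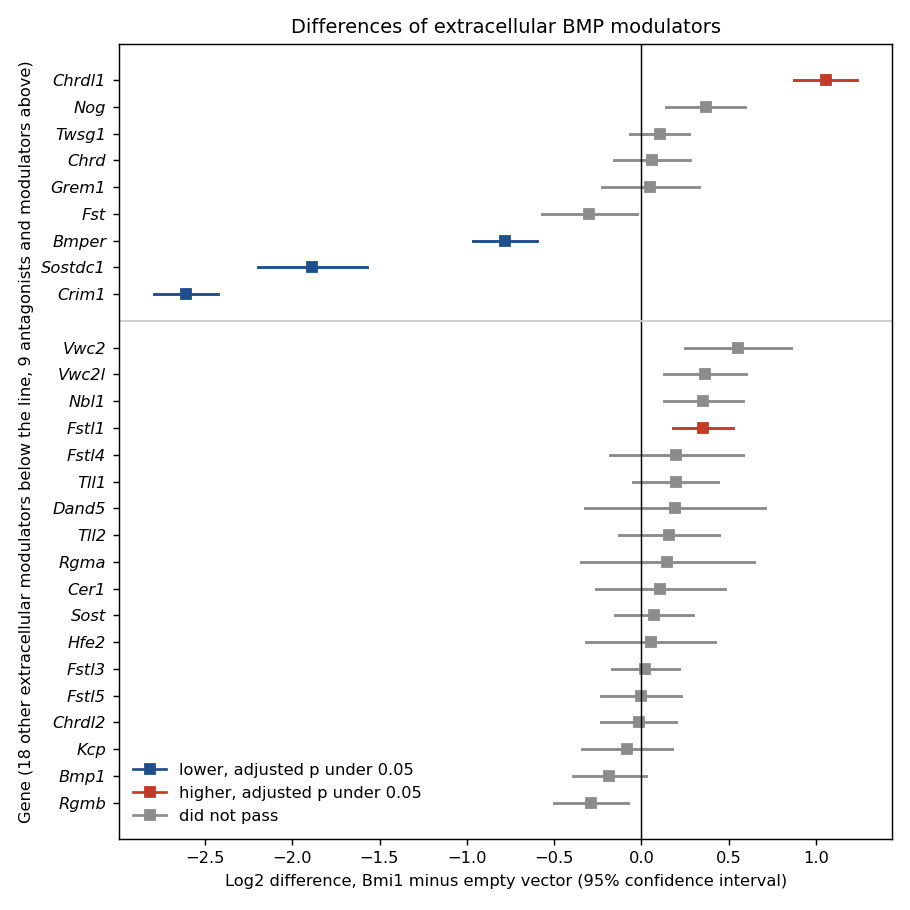
Log2 differences, Bmi1 minus empty vector (x axis), with their 95% confidence intervals from limma, for the 9 genes above the line and 18 other extracellular BMP modulators below it (y axis). Crim1, Sostdc1 and Bmper lie at -2.61, -1.89 and -0.78, Chrdl1 lies at 1.06, and the 18 other genes lie between -0.29 and 0.55. Of these 18, 12 had a mean under 5 over the 6 arrays, against 3 of the 9. Dim probe sets can understate differences, and the 9 genes were listed with earlier results of these arrays known.

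Ligands and receptors are given beside the 7.35% of all genes that were called. Of 22 BMP, GDF and activin ligands with a probe set, 2 fell, none rose and 20 did not pass in limma, a share called of 9.09%, with 5 at an unadjusted p under 0.05 and a median difference of 0.06. Bmp2 read 3.79, 3.63 and 3.95 in the control arrays and 3.16, 2.96 and 3.02 in the Bmi1 arrays. The groups of Bmp2 did not overlap, at values where the array is dim, and its log2 difference was -0.74 (SE 0.11, limma adjusted p = 0.013). Without control replicate 1, Bmi1 replicate 2 or Bmi1 replicate 3 the call of Bmp2 was lost (limma adjusted p = 0.053, 0.054 and 0.053). Gdf11, a ligand related to myostatin, fell by 0.43 (limma adjusted p = 0.042), a call that was lost with any 1 array left out (limma adjusted p = 0.070 to 0.14). Bmp4 and Bmp7, ligands bound by noggin and chordin and named here for that after their values were seen, had differences of 0.08 and 0.02 (limma adjusted p = 0.69 and 0.91).
Of 11 BMP and activin receptor genes, Bmpr2, the type II BMP receptor, fell by 0.40 (limma adjusted p = 0.027), and 10 did not pass, also a share called of 9.09%. The call of Bmpr2 was also lost with any 1 array left out (limma adjusted p = 0.056 to 0.10). Of the 6 receptor-activated and common Smad genes none passed in limma, with 2 at an unadjusted p under 0.05 and differences from -0.06 to 0.41.

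Among target genes of BMP signaling only the Id genes passed, in both directions. Of 10 listed, Id1 and Id3 fell, Id2 and Id4 rose, and 6 did not pass. The share called was 40%, beside 7.35% of all genes, and nothing is read from it because the list was chosen with earlier results known. Id proteins hold back basic helix-loop-helix transcription factors. Id3 read 7.53, 7.55 and 7.93 in the control arrays and 6.53, 6.77 and 6.61 in the Bmi1 arrays. Id1 read 7.35, 7.31 and 7.41 in the control arrays and 6.83, 6.64 and 6.74 in the Bmi1 arrays. For both genes every Bmi1 array was lower than every control array, and the log2 differences were -1.04 and -0.62 (limma adjusted p = 0.0085 and 0.0080). Id4 and Id2 had log2 differences of 0.85 and 0.84 (limma adjusted p = 0.012 and 0.037) with groups that did not overlap. The call of Id2 was lost when any array but control replicate 3 was left out (limma adjusted p = 0.081 to 0.12) and after median centring. That of Id4 was lost without Bmi1 replicate 2 (limma adjusted p = 0.051) and in the methods' test (adjusted p = 0.058). Smad6 and Smad7, the inhibitory Smads, were among the 6 that did not pass. Over these 5 lists, 8 of 67 genes were called, or 11.9% beside 7.35% of all genes. In the methods' test after Benjamini-Hochberg adjustment, Id1 and Bmpr2 kept their calls, and Fstl1, Bmp2, Gdf11, Id2, Id3 and Id4 lost theirs.

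**Figure D3:**
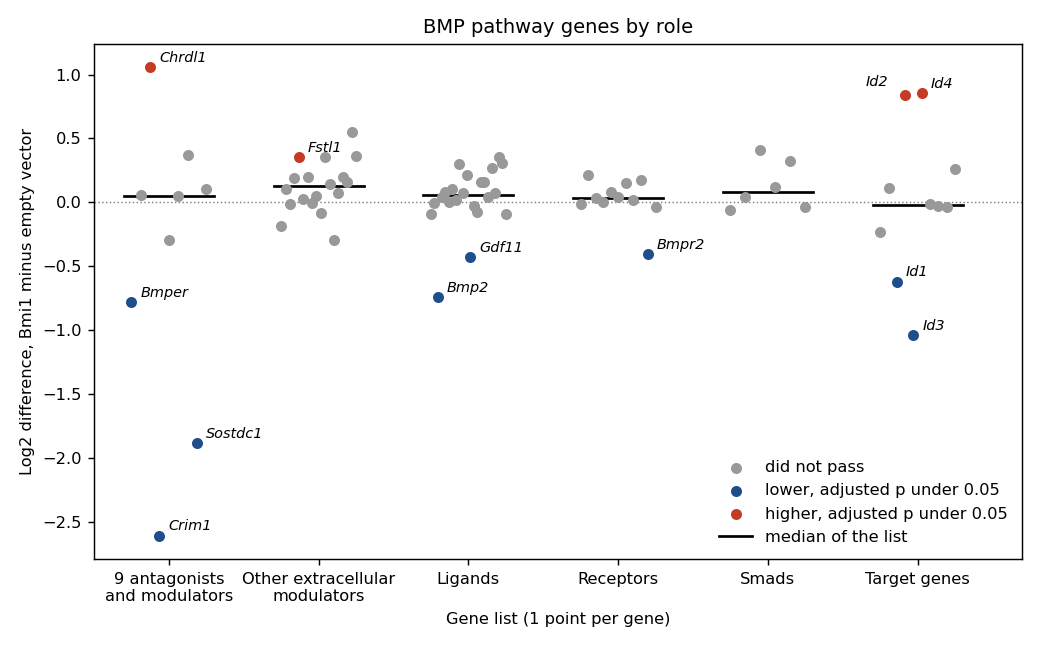
Log2 differences, Bmi1 minus empty vector (y axis), of the 9 genes and of 67 other BMP pathway genes by role (x axis), with 1 point per gene, colors for the limma call and a bar for the median of each list. The medians lie between -0.02 and 0.13, and Crim1 at -2.61 and Chrdl1 at 1.06 are the lowest and highest points shown.

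For each of the 4 called genes, the 3 genes most like it over the 6 arrays are named. They were picked for their likeness, so that they follow these genes closely is no result of its own. Likeness was the root mean square difference between the values of 2 genes, each centered on its own mean, over 19937 candidates, and the points share their 2 groups. Nearest to Crim1 were Ecm2, an extracellular matrix gene, at 0.11 on the log2 scale, Clic5, a chloride intracellular channel gene, and Zc2hc1a, both at 0.16. Ecm2 read 6.82, 7.12 and 6.85 in the control arrays and 4.59, 4.40 and 4.25 in the Bmi1 arrays, a fall much like that of Crim1. Nearest to Sostdc1 were Slit2, a guidance ligand, at 0.07, Pcp4l1 at 0.11 and Ehd4, an endocytosis gene, at 0.12. Slit2 read 5.26, 5.68 and 5.63 in the control arrays and 3.94, 3.74 and 3.61 in the Bmi1 arrays, and like Sostdc1 it was lowest among the controls in replicate 1 and highest among the Bmi1 arrays in replicate 1. Nearest to Chrdl1 were the ceramide kinase gene Cerk at 0.03, the sortilin-family receptor gene Sorcs3 at 0.04 and the ganglioside synthesis gene B4galnt1 at 0.04, with differences of 1.01, 1.03 and 1.02. Nearest to Bmper were Rhoj at 0.03, Swap70 at 0.04 and Acad11 at 0.04, with differences of -0.79, -0.73 and -0.75.

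Cell type markers are given beside the 7.35% of all genes that were called, 4.37% as lower and 2.98% as higher. Their lists were chosen with earlier results of these arrays known, so nothing is read from their counts. The stem cell markers Nes and Sox2 read 9.69 ± 0.07 and 10.2 ± 0.03 in the control arrays and 9.64 ± 0.05 and 10.4 ± 0.12 in the Bmi1 arrays (SD, n = 3 each), and did not pass (limma adjusted p = 0.75 and 0.20). Of 11 neural stem and progenitor markers Prom1 and Hes5 rose and none fell, and the mean level of the list was 9.08 to 9.13 in control arrays and 9.28 to 9.39 in Bmi1 arrays. Prom1 and Hes5 differed by 1.58 and 1.05, whereas 5 of the 11 lay below 0 and the median difference was 0.01. Of 6 oligodendrocyte precursor markers Pdgfra, Gpr17, Nkx2-2 and C1ql1 rose, all 6 lay above 0 with a median difference of 0.97, and the mean level was 4.94 to 5.07 in control and 5.77 to 6.07 in Bmi1 arrays. Of 8 neuroblast markers Dcx, Dlx1, Dlx2 and Elavl3 rose, all 8 lay above 0 with a median of 0.71, and the mean level was 4.75 to 4.80 against 5.37 to 5.41. Of 8 astrocyte markers Aqp4, Gja1 and Ndrg2 rose, with a median of 0.34 and mean levels of 7.16 to 7.27 against 7.71 to 7.98. Ndrg2 had the largest difference of them, 3.05, and S100b and Aldoc lay at -0.38 and -0.28.
The lower means of the pericyte and fibroblast list and of the oligodendrocyte list went with a pair of genes each. Of 12 pericyte and fibroblast markers Acta2 and Twist1 fell by 1.34 and 2.40, with mean levels of 4.41 to 4.53 in control and 4.20 to 4.24 in Bmi1 arrays, but 6 of the 12 lay above 0 and the median was 0.00. Pdgfrb, a defining one, read 3.52 ± 0.10 in control and 3.57 ± 0.12 in Bmi1 arrays (SD, n = 3 each). Of 7 oligodendrocyte markers Opalin and Ugt8a fell by 0.78 and 1.53, with mean levels of 4.84 to 4.92 against 4.63 to 4.74, whereas the other 5 lay above 0 and the median was 0.09.
Ependymal markers, whose cells are a known source of noggin, had mean levels of 4.08 to 4.10 in control and 4.07 to 4.09 in Bmi1 arrays, and none of the 8 passed in limma, with 1 at an unadjusted p under 0.05. Foxj1, the ependymal transcription factor, had a log2 difference of -0.22 (limma adjusted p = 0.16). None of 8 endothelial, 7 choroid plexus and 8 microglial markers passed in limma, with 1, 0 and 0 at an unadjusted p under 0.05. All markers of these last lists had a mean under 5 over the 6 arrays, as had 6 of the 8 ependymal ones. Differences of such dim genes may be understated, so these lists cannot show that the cell types stayed unchanged. The part of cell type shares in the differences of Crim1, Sostdc1, Bmper and Chrdl1 was not tested, and in these bulk samples fewer cells of a type and less RNA per cell cannot be told apart.

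**Figure D4:**
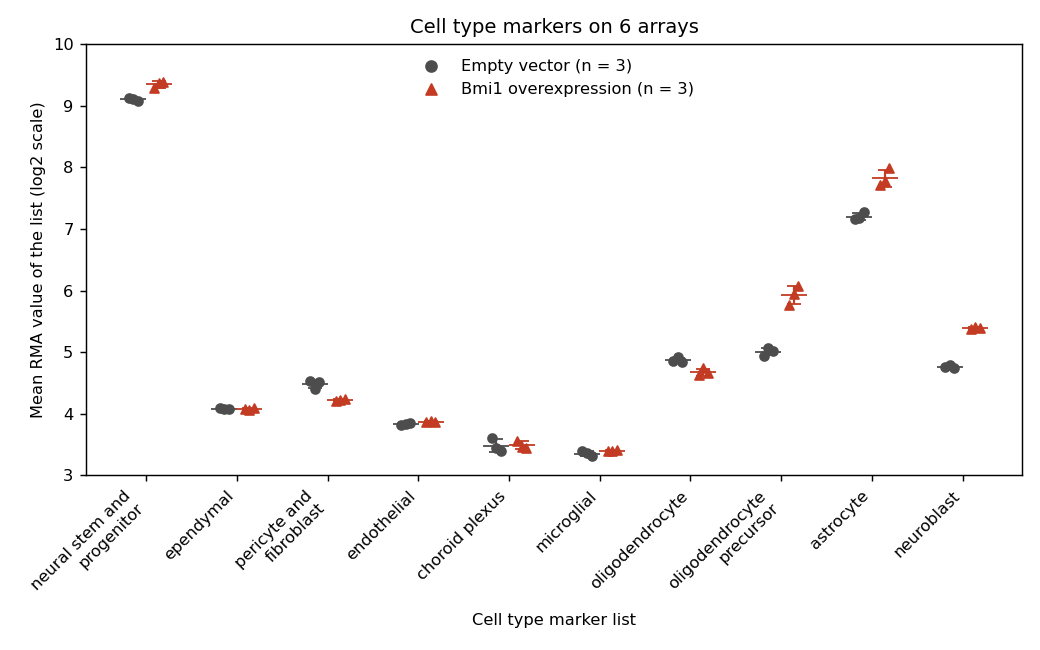
The y axis gives the mean RMA value (log2) over each of 10 cell type marker lists on the x axis. Each symbol is 1 array (circle, empty vector; triangle, Bmi1), and horizontal lines with bars give group means ± SD (n = 3). Oligodendrocyte precursor, astrocyte, neuroblast and stem cell lists lie higher on every Bmi1 array, and the pericyte and fibroblast and oligodendrocyte lists lie lower. The median differences of the stem cell, pericyte and fibroblast, and oligodendrocyte lists are 0.01, 0.00 and 0.09, and their means are moved by 2 genes each.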

How the data were processed

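RNA (300 ng per sample) of 6 neurosphere cultures, 3 per group, was measured on 1 array each. The authors deposited log2 values made by RMA, which corrects the background, equalizes arrays by quantiles and combines the probes of each probe set. The submitters' processing notes name Affymetrix Expression Console as the software, and its version is not given in the sources used here. The table holds 35557 probe sets. The platform annotation names 1 gene for 21789 of them and several for 1621, which stayed unnamed. By Entrez identifier, 21698 of the 21789 matched RefSeq (GRCm38.p6).

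Groups were taken from titles. limma 3.58.1 (R 4.3.3) was fitted to all probe sets without a filter, with two-sided tests and Benjamini-Hochberg adjustment over the whole table, after the fit had been tested on simulated data. Precision is limited by the number of arrays. The 9 genes and all lists were chosen with earlier results of these arrays known. Of 71 listed pathway genes 67 had a probe set of their own. Named were the 9 genes, Bmi1, up to 4 called genes per pathway list, the 3 nearest genes of each called gene, and Nes, Sox2, Foxj1 and Pdgfrb. Rgmb, Vwc2, Bmp4, Bmp7, Smad6, Smad7, S100b, Aldoc and the called marker genes were named after their values were seen. Alternatives were other tests, filters, scalings and priors, array weights, a replicate block, means over probe sets and each array left out. Plots were made with matplotlib 3.10.9. Other experiments of the study were not analysed here.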

Additional observations from a re-analysis of the deposited data

How the results depend on the processing

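No difference of the 4 called genes changed its direction under any alternative run, and calls changed as follows. Of the 9 genes, 4 were called, and 2 in the Welch form of the t-test (1 lower and 1 higher). These were Crim1 and Chrdl1, which passed the Welch form only narrowly (adjusted p = 0.047 and 0.044). With a mean of at least 6 over the arrays 2 were called, where Sostdc1 and Chrdl1 were left out and 0 were higher by limma. The methods' t-test at its thresholds (p under 0.001, size of 1 or more) called Crim1, Sostdc1 and Chrdl1. Of the 67 pathway genes, 8 were called, and 3 to 5 with 1 array left out. With a mean of at least 5 over the arrays, 31 of the 67 remained and 13 were called. The methods' t-test called 0 at its thresholds and 2 after Benjamini-Hochberg adjustment, and its Welch form called 0. At an unadjusted p under 0.05, 17 and 15 pathway genes passed in these 2 forms of the t-test. Of all 35557 probe sets, 2025 were called, 300 by the methods' t-test (200 lower and 100 higher) and 210 by its Welch form. A trended and robust prior gave 3062 calls, and fits with 1 array left out gave 974 to 1275. With a mean of at least 5 or 6, 3424 of 15149 and 3193 of 11487 probe sets were called. Of the 2025 called, 60.8% were lower, and 71.2% of those called after median centring. Deviations of same-numbered arrays from their group means correlated at -0.032 to 3.4e-05. With so few arrays this cannot tell whether same-numbered cultures were prepared together, so a fit with a replicate block is given too. With the replicate block, 850 probe sets and 4 pathway genes were called (Fstl1, Gdf11, Bmpr2 and Id4 lost their calls, Id4 with an adjusted p of 0.056), and the same 4 of the 9 genes passed (adjusted p = 0.011 to 0.027). Differences near 0 that did not pass could change sign, that of Chrd without Bmi1 replicate 1, that of Grem1 without Bmi1 replicate 2 and after median centring, and that of Bmp7 after median centring, without control replicate 1 and without Bmi1 replicate 1. Averaging a gene's probe sets, quantile normalization and array weights changed none of these counts by more than 1.5 times, and the cause of the other moves was not tested.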
